A study of Homo sapiens with 6 samples.

Results

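The genes described here are 42 genes of the unfolded protein response of the endoplasmic reticulum (ER) and of the ATF4 branch of the integrated stress response. They were taken by symbol from a list drawn up with earlier results of these data known, out of 35580 genes to which a measured transcript could be joined. By role they fall into 15 ER folding genes, 5 sensors and transcription factors, 14 ATF4 targets, 6 genes of ER-associated decay and 2 genes of rough ER shape. The RNA came from Rh30, a line of alveolar rhabdomyosarcoma (a childhood tumour with features of skeletal muscle) that carries the PAX3-FOXO1 gene fusion. The study set 3 libraries of cells with DDX5, an RNA helicase, knocked down, labelled siDDX5, against 3 control libraries of the same line. The samples are described as biological replicates, all groups share the fusion and the line, and the sequence of the siRNA and the nature of the control are not given in the sources used here. Both groups are cultures of a single tumour line, and the time after knockdown is not given in the sources used here.

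Proteins that enter the secretory pathway are folded in the ER by chaperones such as HSPA5 (BiP) and by disulfide isomerases. When unfolded proteins build up, the sensors ERN1 (IRE1), EIF2AK3 (PERK) and ATF6 are activated. ERN1 cuts an intron out of XBP1 mRNA in the cytoplasm, ATF6 is released as a transcription factor, and EIF2AK3 phosphorylates the initiation factor eIF2 alpha, which lowers general translation and raises that of ATF4. ATF4 and XBP1 then raise genes of amino acid supply, folding and the disposal of misfolded proteins. Secretory and muscle cells use these routes in ordinary growth as well as under stress.

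Sequences that mark the response in DNA and RNA are shown first, because later counts refer to them. RefSeq promoters (GRCh38.p14, from 250 bases before to 50 after the start site) were matched for 39 of the 42 genes and not for PDIA3, SLC7A11 and DERL1. They were searched on both strands for the ER stress element ERSE, which is CCAAT, then any 9 bases, then CCACG, bound by ATF6 together with NF-Y. ERSE was present in 22 of 27305 promoters (0.0806%) and in 5 of 14 ER folding promoters (35.7%), and XBP1 was the only other member with one. The lines show 29 bases each, read 5′ to 3′ on the strand that carries the motif, with its fixed letters in capitals. HSP90B1 held a second copy, which is not shown.
HSPA5 (chr9:125241386-125241414, minus strand): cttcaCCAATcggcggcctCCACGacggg
HSP90B1 (chr12:103930211-103930239, plus strand): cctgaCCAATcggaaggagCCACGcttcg
CALR (chr19:12938379-12938407, minus strand): accgaCCAATgatggtcgaCCACGcgtgg
CANX (chr5:179698773-179698801, plus strand): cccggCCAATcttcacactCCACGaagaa
CRELD2 (chr22:49918549-49918577, minus strand): atggcCCAATccgagttcgCCACGagagg
XBP1 (chr22:28800598-28800626, minus strand): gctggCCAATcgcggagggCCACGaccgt

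The related element ERSE-II, which is ATTGG, any 1 base, then CCACG, was present in 15 of 27305 promoters (0.0549%) and in 3 of 39 member promoters (7.69%). HYOU1, a large ER chaperone, held it at 79 and at 185 bases before the start site. The farther copy overlapped the motif UPRE (TGACGTGG), which was in 217 promoters (0.795%) and in no other member. HERPUD1, an adaptor of the decay complex, held ERSE-II at 117 bases before its start site, and SDF2L1, a cofactor of HSPA5, at 188 bases.
HYOU1 (chr11:119057371-119057399, plus strand): cggcctgggATTGGaCCACGtcacggggc
HERPUD1 (chr16:56932016-56932044, plus strand): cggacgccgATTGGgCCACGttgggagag
SDF2L1 (chr22:21642105-21642133, minus strand): agggttttgATTGGtCCACGcttccgagg

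The element that ATF4 binds together with C/EBP proteins, called CARE and searched as TGATGNAA, was in 1003 of 27305 promoters (3.67%). It was in 5 of 13 ATF4 target promoters (38.5%), those of PPP1R15B, ATF3, ASNS, SLC3A2 and CHAC1, and also in that of HERPUD1. In PPP1R15B it lay 227 bases before the start site, in ATF3 191 bases, in ASNS 68 bases and in CHAC1 209 bases. A match describes letters in this window and not binding, and a gene without one may hold the motif elsewhere.
PPP1R15B (chr1:204412026-204412055, minus strand): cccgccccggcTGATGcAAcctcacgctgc
ATF3 (chr1:212565205-212565234, plus strand): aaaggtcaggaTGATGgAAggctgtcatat
ASNS (chr7:97872458-97872487, minus strand): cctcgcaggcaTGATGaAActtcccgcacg
CHAC1 (chr15:40953251-40953280, minus strand): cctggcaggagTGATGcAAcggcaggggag

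The libraries held 18202402 to 26156858 estimated counts, with all 3 siDDX5 libraries below the 3 controls in depth. DDX5, a check of the labels, was at 1137 to 1434 CPM (counts scaled to a common library total) in the control and 396 to 549 CPM in the siDDX5 libraries, and its log2 fold change was -1.44 (standard error 0.15). The summed level of 7 myogenic markers, all detected, was 1140 to 1580 CPM across the controls and 1160 to 1310 CPM with siDDX5, while 4 epithelial and 4 haematopoietic markers each summed to at most 3.07 CPM and 3 endothelial markers, mostly PECAM1, to at most 15.8 CPM. In bulk RNA, fewer cells of a type and less RNA per cell cannot be told apart. Both replicate 3 libraries stood apart from the other 4 on the first principal component, which held 32.8% of the variance. Same-numbered libraries deviated together from their group means, most of all in replicate 3 (correlation 0.66, beside 0.23 and 0.32). The labels do not state that the numbers mark pairs. The counts of calls therefore come from a model without a replicate term and from one with the replicate block.

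Of the 42 genes, 41 passed the filter on low counts and 1 passed an adjusted p of 0.05 by edgeR's quasi-likelihood method, beside 25 of 15223 genes tested (0.164%). That gene was RRBP1, which was lower in siDDX5 cells, as were 17 of the 25 (0.112% of all genes, with 0.0526% higher). With the replicate block, 3 members were called, RRBP1 lower and PPP1R15B and DNAJB9 higher, against 395 genes (2.59%, from 1.14% above and 1.45% below the control). At an unadjusted p under 0.05 without the block there were 6 members, 4 higher and 2 lower, a share of 14.6% beside 11.4% of all genes tested (817 genes or 5.37% higher, and 914 genes lower). In 7 members (17.1%) the groups did not overlap, 5 with all siDDX5 libraries above all control libraries and 2 with all below, beside 18.1% of all genes (8.86% above and 9.21% below). Both of these shares lie near those of all genes. Of the 41 log2 fold changes, 28 were above 0 and 13 below, with a median of 0.070 beside -0.002 for all genes tested (7557 above 0 and 7666 below). Most of the response genes therefore showed no change that the spread between libraries allowed to be called.

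**Figure D1:**
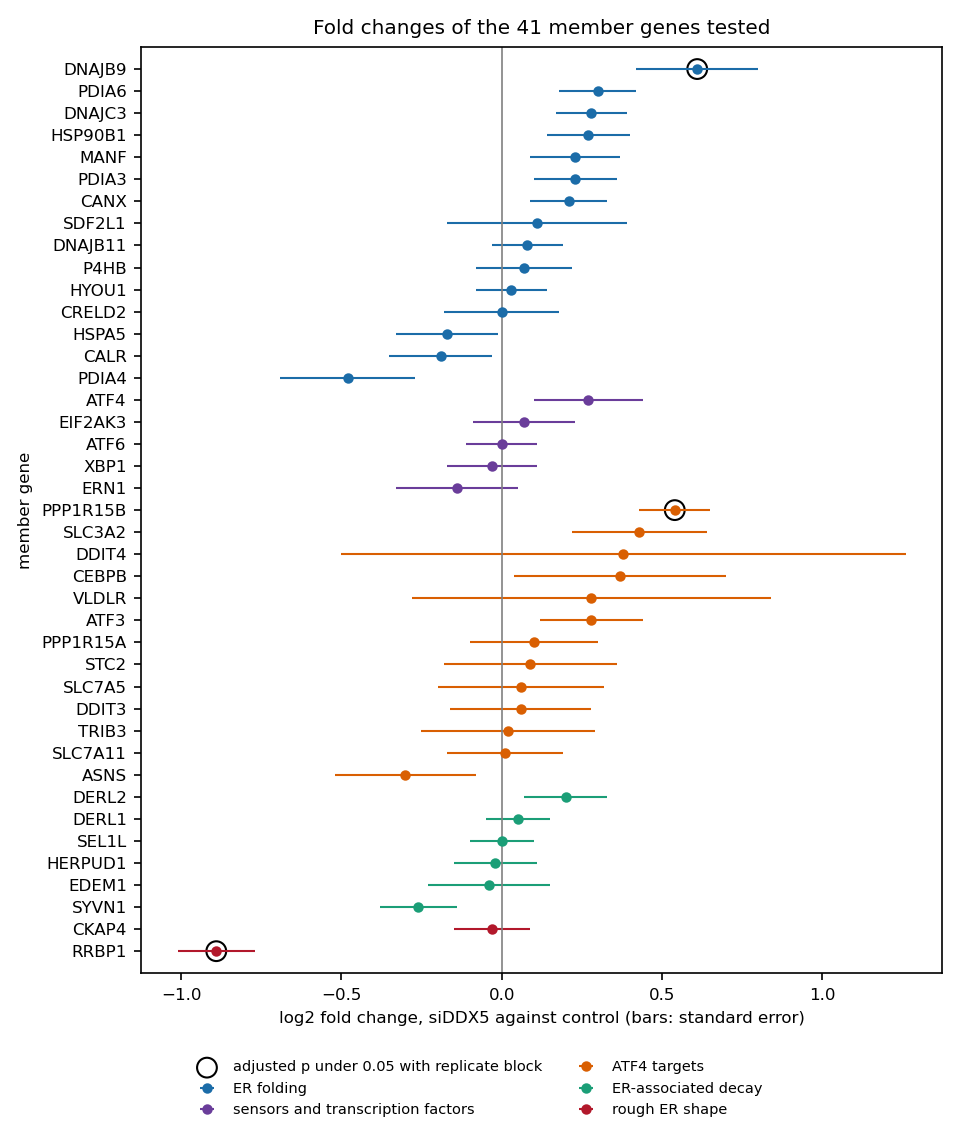
Log2 fold change of siDDX5 against control for each of the 41 genes tested, grouped and coloured by role, with bars for the standard error of the edgeR fit without the block. Most points lie within their error of 0. RRBP1 lies farthest to the left at -0.89, and the black rings mark the 3 genes called with the replicate block.

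Among the ER folding genes, chaperones were the most abundant per length. HSP90B1 (GRP94) had 789 ± 120 TPM (SD, n = 3; TPM is the deposited level scaled for transcript length) in control cells, CALR (calreticulin) 749 ± 107 TPM, CANX (calnexin) 657 ± 67 TPM, P4HB (the disulfide isomerase PDI) 577 TPM and HSPA5 528 ± 84.4 TPM. SDF2L1 was the lowest of the 15, at 15.8 TPM. Over all genes tested, 7557 log2 fold changes were above 0 and 7666 below. The fitted log2 fold changes of the 15 genes ran from -0.48 to 0.61, with 12 above 0, 3 below 0 and a median of 0.109. Without the block none was called, 4 had an unadjusted p under 0.05 (DNAJB9, DNAJC3 and PDIA6 higher, PDIA4 lower), which is 26.7% beside 11.4% of all genes, and with the block 1 was called (6.67% beside 2.59%). With 15 genes in the list, these shares rest on 4 genes and 1 gene.

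HSPA5 (ENSG00000044574.7, chr9:125234853-125241330), the main chaperone and the usual readout of the response, was at 1163, 1076 and 1412 CPM across the controls, always in the order of replicates 1, 2 and 3, and at 897, 1323 and 1031 CPM with siDDX5. The groups overlapped, since siDDX5 replicate 2 lay above 2 of the 3 controls. Its log2 fold change was -0.17 (standard error 0.16), and its adjusted p in edgeR's test was 0.747. The 3 differences between same-numbered libraries were -0.37, 0.30 and -0.45 on the log2 scale, so they did not share a sign.

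DNAJB9 (ERdj4, ENSG00000128590.4, chr7:108569568-108574850) is a J-domain partner of HSPA5. It was at 13.2, 17.6 and 16.6 CPM across the controls and 18.1, 28.2 and 25.9 CPM with siDDX5. Every siDDX5 library lay above every control library, although siDDX5 replicate 1 was only just above the highest control. Its mean was 15.8 ± 2.31 CPM (SD, n = 3) in control and 24.0 ± 5.29 CPM (SD, n = 3) in siDDX5 cells, a log2 fold change of 0.61 (standard error 0.19). The adjusted p in edgeR's test was 0.259 in the model without a replicate term and 0.0243 with the block. The replicate block was the only alternative that called it, and the others gave an adjusted p of 0.0659 to 0.702.

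DNAJC3 (p58IPK, chr13:95677139-95794989) is a co-chaperone that also inhibits the eIF2 alpha kinases. It was at 83.3, 80.8 and 97.0 CPM across the controls and 104, 109 and 105 CPM with siDDX5. These groups did not overlap, with a log2 fold change of 0.28, a standard error of 0.11 and an adjusted p of 0.359 in edgeR's test.

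PDIA6 (chr2:10783391-10837977), a disulfide isomerase, was at 299, 241 and 303 CPM across the controls and 318, 367 and 353 CPM with siDDX5. Its groups did not overlap, though control replicates 1 and 3 lay close below siDDX5 replicate 1. The log2 fold change was 0.30, the standard error 0.12 and the adjusted p in edgeR's test 0.395. PDIA4 (chr7:149003062-149028641), another isomerase of the same family, went the other way in the fit. Its level was 25.6, 18.0 and 22.3 CPM across the controls and 12.5, 20.7 and 13.9 CPM with siDDX5. The groups overlapped because siDDX5 replicate 2 was above control replicate 2. The log2 fold change was -0.48 (standard error 0.21), and the adjusted p in edgeR's test was 0.420.

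HSP90B1 was at 984, 793 and 1077 CPM across the controls and 1087, 1186 and 1175 CPM with siDDX5, without overlap and with an adjusted p of 0.474 in edgeR's test. CALR, the calcium-binding lectin chaperone, had a log2 fold change of -0.19, and the other 8 genes of the group lay between 0.00 and 0.23. These were CANX and PDIA3, which act in the glycoprotein folding cycle, P4HB, DNAJB11, HYOU1, SDF2L1, MANF and CRELD2, with adjusted p from 0.536 to 0.999. For CANX, 87.9% of the counts lay on transcripts that were joined by symbol from copies outside the primary assembly, and without that join its log2 fold change was -0.29 in place of 0.21.

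**Figure D2:**
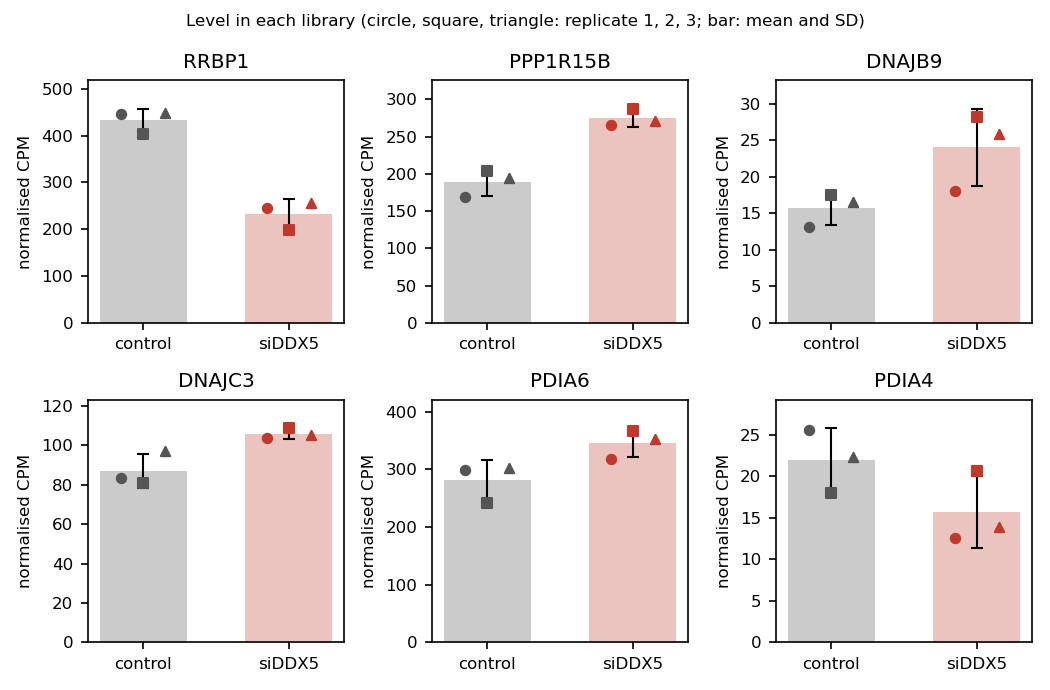
Normalised level in CPM of the 6 members with an unadjusted p under 0.05, with 1 panel per gene, 1 point per library (circle, square and triangle for replicates 1, 2 and 3) and bars for the mean with its SD. The siDDX5 points of RRBP1 lie below and those of PPP1R15B, DNAJB9, DNAJC3 and PDIA6 above all control points, while those of PDIA4 overlap.

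None of the 5 sensors and transcription factors was called or had an unadjusted p under 0.05, and their log2 fold changes ran from -0.14 to 0.27. XBP1 was at 51.5, 50.3 and 58.2 CPM across the controls and 44.8, 62.1 and 50.05 CPM with siDDX5, with the groups overlapping. Its log2 fold change was -0.03 (standard error 0.14). ATF4 was at 216, 240 and 182 CPM across the controls and 223, 328 and 216 CPM with siDDX5. Its highest value was in siDDX5 replicate 2, and the other siDDX5 values lay among the controls. The log2 fold change of ATF4 was 0.27 (standard error 0.17), and the adjusted p in edgeR's test was 0.599 without and 0.211 with the block. ATF4 is controlled largely through translation, which these RNA libraries do not measure. The sensors ATF6 (0.00), ERN1 (-0.14) and EIF2AK3 (0.07) had log2 fold changes no larger than their standard errors, with adjusted p from 0.815 to 0.999 in edgeR's test. For EIF2AK3, 21.6% of the counts lay on transcripts joined by position, and with the primary-assembly join only its log2 fold change was -0.49, so its direction depends on the join.

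The splicing of XBP1 gives a readout of ERN1 activity that the gene's level does not. The stretch that ERN1 removes is 26 bases long and lies at chr22:28796124-28796149 (GRCh38, minus strand). It is shown in capitals, with 2 flanking bases on each side, as found by comparing the annotated transcript forms.
XBP1 intron: agCACTCAGACTACGTGCACCTCTGCAGca
Transcripts ENST00000611155.4 and ENST00000344347.5 lack the stretch and 4 others hold it. The spliced forms took 11.6%, 6.53% and 12.3% of the estimated XBP1 counts of both forms across the controls. With siDDX5 they took 7.92%, 18.0% and 11.1%. The lowest share was in a control and the highest in siDDX5 replicate 2, and the remaining 4 lay between 7.92% and 12.3%. The means were 10.1 ± 3.14% and 12.4 ± 5.14% (SD, n = 3 each), a difference of 2.22 percentage points. The exact two-sided permutation test gave p = 0.6, where 3 against 3 libraries cannot go below 0.1. Without siDDX5 replicate 2 the difference was -0.60 percentage points, so its sign rests on that library. The annotated transcripts also differ outside the stretch, with lengths of 1131 and 1794 bases for the spliced and 1690 to 2173 bases for the unspliced ones. The share may follow those differences too, which was not tested. The division of reads between the transcripts was made by the authors' quantifier, and its error is not given.

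**Figure D3:**
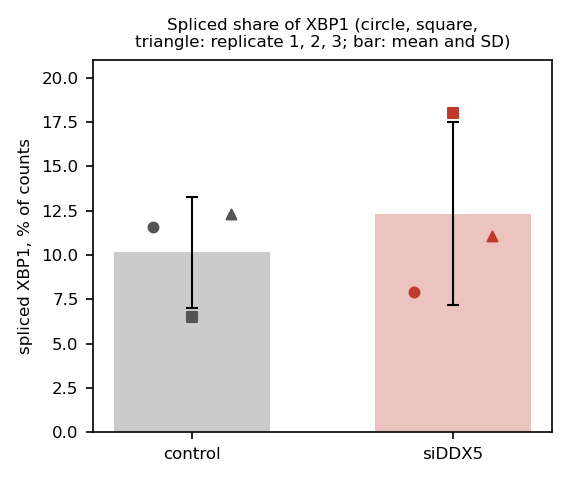
Share of XBP1 estimated counts on transcripts without the 26-base stretch, in percent, with 1 point per library and bars for the mean with its SD. The 2 groups overlap, and siDDX5 replicate 2 has the highest share at 18.0%.

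Of the 14 ATF4 targets, 13 passed the filter, 12 with a log2 fold change above 0 and 1 below, and the median was 0.105. Over all genes tested 7557 were above 0 and 7666 below, and of 35 further ATF4 targets in a wider set 20 were above and 15 below. Some of the 12 lay near 0, such as SLC7A11 (0.01), TRIB3 (0.02) and DDIT3 (0.06). Between same-numbered libraries, 12 of the 13 were higher with siDDX5 in replicate 2 (median difference 0.36 on the log2 scale). In replicate 1 this was 7 of 13 (median 0.01) and in replicate 3 it was 6 of 13 (median -0.02). Without the block none of the 13 was called and 1 had an unadjusted p under 0.05 (7.69% beside 11.4% of all genes). With the block 1 of the 13 was called (7.69% beside 2.59%). That gene in each case was PPP1R15B (CReP, ENSG00000158615.8, chr1:204403387-204411791), the constitutive subunit that brings protein phosphatase 1 to eIF2 alpha. Its place among the ATF4 targets comes from the list used here, and both shares rest on this 1 gene. It was at 168, 204 and 194 CPM across the controls and 265, 288 and 271 CPM with siDDX5. Every siDDX5 library stood well above every control. The means were 188.8 ± 18.4 and 274.6 ± 11.5 CPM (SD, n = 3 each), 1.45-fold higher in siDDX5 cells, with a log2 fold change of 0.54 and a standard error of 0.11. Its adjusted p in edgeR's test was 0.0851 without the block and 0.0161 with it, and DESeq2's Wald test gave an adjusted p of 0.000939. It was not called with limma-trend (adjusted p 0.309 and 0.330 at the pseudocounts 1 and 0.1), without any 1 library (0.167 to 0.331) or without both replicate 3 libraries (0.432). The same-numbered differences of PPP1R15B were 0.66, 0.50 and 0.48 on the log2 scale.

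PPP1R15A (GADD34), the stress-inducible subunit with the same role, was at 111 to 155 CPM across the controls and 112 to 192 CPM with siDDX5, with a log2 fold change of 0.10 and an adjusted p of 0.883 in edgeR's test. The difference between these related subunits was not itself tested. DDIT3 (CHOP, chr12:57516588-57521737), a transcription factor of prolonged ER stress, was at 219, 297 and 356 CPM across the controls and 210, 368 and 333 CPM with siDDX5. The groups overlapped almost fully, with a log2 fold change of 0.06, a standard error of 0.22 and an adjusted p of 0.943 in edgeR's test. Per length DDIT3 was the most abundant of the ATF4 targets among the members, at 591 ± 149 TPM (SD, n = 3) in control and 596 ± 141 TPM (SD, n = 3) in siDDX5 cells. The next member was SLC3A2, the heavy chain of amino acid exchangers, at 234 TPM in control cells. Outside the members, the ATF4 targets SHMT2 (chr12:57229327-57234935) and MARS1 (chr12:57475445-57517569) were higher, at 2590 and 1340 TPM in control cells. DDIT3, SHMT2 and MARS1 lie close to CDK4 (chr12:57747727-57756013), a cell cycle kinase. The mean level of CDK4 was 8364 ± 670 CPM in the controls and 9303 ± 1970 CPM with siDDX5 (SD, n = 3 each). Why these neighbours are at high levels was not tested.

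ATF3, TRIB3 and CEBPB, which encode regulators that ATF4 induces, had log2 fold changes of 0.28, 0.02 and 0.37, with adjusted p from 0.564 to 0.991 in edgeR's test. Among genes of amino acid supply, ASNS (asparagine synthetase) had -0.30, SLC7A11 (the cystine transporter) 0.01, SLC7A5 (a leucine transporter) 0.06 and SLC3A2 0.43. The adjusted p of SLC3A2 in edgeR's test was 0.489, or 0.0603 with the block. CHAC1, which degrades glutathione, did not pass the filter. It was at 0.19, 0.46 and 0.49 CPM across the controls and 0.00, 0.38 and 0.22 CPM with siDDX5, where 3 counts correspond to 0.115 to 0.165 CPM, and it was not tested.

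DDIT4 (REDD1), an inhibitor of mTORC1, varied with the replicate number more than with the group. It was at 10.8, 8.51 and 68.4 CPM across the controls and 12.5, 13.1 and 89.0 CPM with siDDX5. Replicate 3 was 6.33 times the higher of the other controls, and 6.82 times the higher of the other siDDX5 libraries. Its log2 fold change was 0.38 (standard error 0.88), and its adjusted p in edgeR's test was 0.905 without and 0.0900 with the block. Its log2 fold change rose to 1.98 without control replicate 3 and turned to -1.19 without siDDX5 replicate 3, so its size and direction without the block rest on those libraries. VLDLR, a lipoprotein receptor, had the same layout, with replicate 3 at 2.31 and 3.66 times the higher of the others in the control and siDDX5 groups. STC2, a secreted glycoprotein, had ratios of 1.89 and 1.61, and SLC7A5 1.58 and 1.51. What separates the replicate 3 cultures is not given in the labels.

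**Figure D4:**
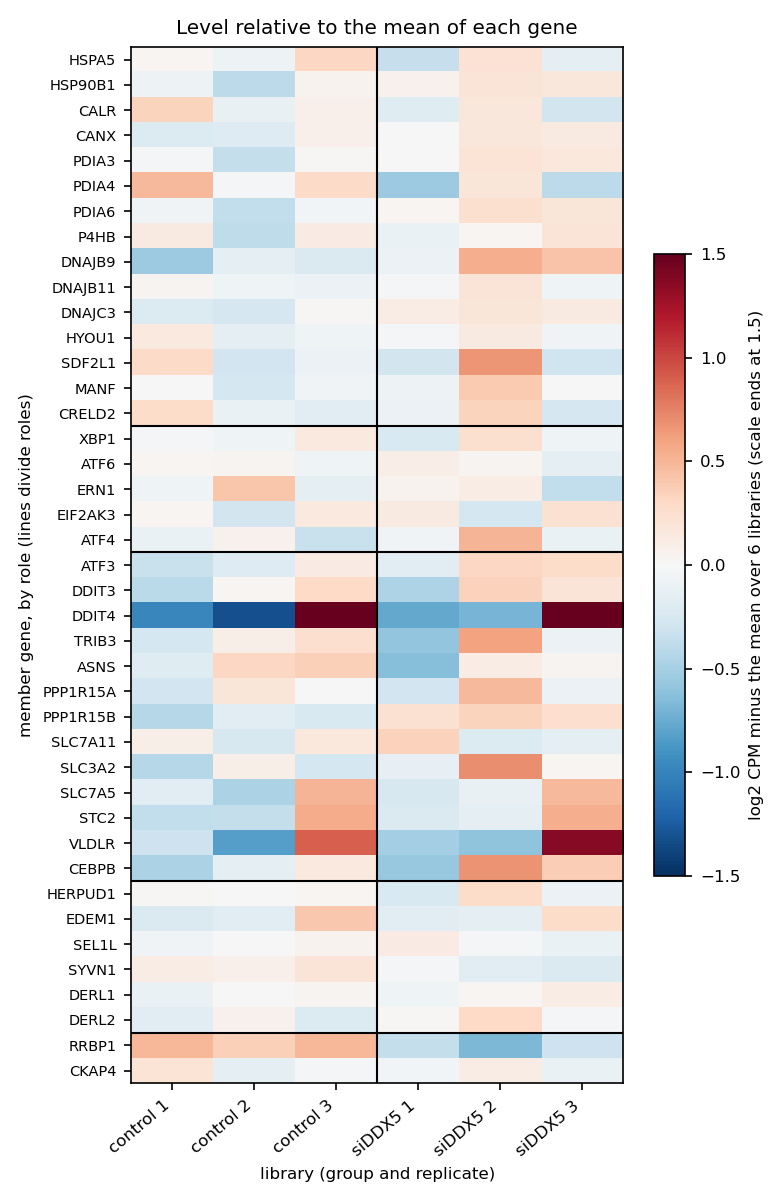
Log2 CPM of each of the 41 genes tested in each of the 6 libraries, minus the gene's mean over the libraries, with colours that end at 1.5 in either direction and lines that divide the roles. The ER folding rows are mostly red in siDDX5 replicate 2, DDIT4 and VLDLR are red in both replicate 3 libraries, and RRBP1 is blue in all 3 siDDX5 libraries.

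Differences between same-numbered libraries showed how uneven the 3 pairs were. In pair 2 the siDDX5 library was higher for 35 of 41 members (85.4%), with a median difference of 0.30 on the log2 scale. In pair 1 this was 21 of 41 (51.2%, median 0.01) and in pair 3 it was 20 of 41 (48.8%, median -0.02). Over all genes tested the shares were 50.4%, 50.1% and 50.4%. The normalisation centres each library on all genes, so these shares are near their middle by construction and do not bear on the cause of the shift in pair 2, which was not tested. All 15 ER folding genes were higher in siDDX5 replicate 2 than in control replicate 2 (median 0.43), against 6 of 15 in pair 1 and 10 of 15 in pair 3. The 9 genes with ERSE or ERSE-II in the promoter were all higher in pair 2 (median 0.30), against 2 of 9 in pair 1 (median -0.25) and 3 of 9 in pair 3 (median -0.11). Of these genes, 5 with ERSE and 2 with ERSE-II are among the 15 ER folding genes, so this count largely repeats the one before. Their median in pair 2 equals that of all 41 members and is below that of the ER folding genes. The pair with the largest shift also held both extremes of the XBP1 spliced share, 6.53% in the control and 18.0% in the siDDX5 library. Each pair sets 1 library against 1, and pair 2 was picked out by its values. All 3 differences had the same sign in 17 members, 14 higher and 3 lower, which is 41.5% beside 43.0% of all genes tested. The 3 lower were RRBP1, SYVN1 and ASNS.

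The 6 genes of ER-associated decay, the route by which misfolded proteins leave the ER for the proteasome, had log2 fold changes from -0.26 to 0.20. None was called, without or with the block, and none had an unadjusted p under 0.05 in edgeR's test. SYVN1 (HRD1), the ubiquitin ligase at the centre of the route, was at 27.6, 27.1 and 29.4 CPM across the controls and 25.3, 23.0 and 22.1 CPM with siDDX5. The groups did not overlap, but the difference was small, at -0.26 with an adjusted p of 0.451. SEL1L, the partner of SYVN1, had a log2 fold change of 0.00, HERPUD1 -0.02, EDEM1 (a lectin that sorts glycoproteins for decay) -0.04, and the channel proteins DERL1 and DERL2 0.05 and 0.20.

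RRBP1 (p180, ENSG00000125844.15, chr20:17613678-17682295, minus strand) encodes the ribosome-binding protein of rough ER sheets, and it had the largest fall of the 41 members tested. It was at 446, 404 and 448 CPM across the controls and 246, 198 and 256 CPM with siDDX5. The highest siDDX5 library lay far below the lowest control. The means were 432.8 ± 24.8 and 233.6 ± 31.3 CPM (SD, n = 3 each), 1.85-fold lower in siDDX5 cells, with a log2 fold change of -0.89 and a standard error of 0.12. The adjusted p in edgeR's test was 0.0296 in the model without a replicate term and 0.00415 with the block. The same-numbered differences were -0.86, -1.03 and -0.81 on the log2 scale. Leaving out any 1 of the 6 libraries kept the log2 fold change between -0.95 and -0.78 but ended the call each time. The call of DDX5 itself also ended without control replicate 1, siDDX5 replicate 1 or siDDX5 replicate 2, and stayed otherwise. CKAP4 (CLIMP-63), a protein that spaces ER sheets, was at 148 to 189 CPM across the controls and 153 to 176 CPM with siDDX5, with a log2 fold change of -0.03.

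Its main transcripts kept overlapping shares of the RRBP1 counts. ENST00000246043.8 took 58.2 ± 5.23% of its counts in control and 52.9 ± 6.46% in siDDX5 cells, and ENST00000377813.5 took 35.4 ± 4.73% and 40.6 ± 5.42% (SD, n = 3 each). Of the 32 members with more than 1 transcript to compare, 0 were called for changed transcript usage in edgeR's diffSpliceDGE, against 168 of 10704 genes (1.57%), and 1 had an unadjusted p under 0.05. With the block the count among members was also 0, against 128 genes (1.20%). The lowest adjusted p among members was 0.679, for DNAJC3.

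The RRBP1 3′ UTR (untranslated region) carries the 7-base word GACGCCA, which was of interest because an earlier look at these data had found it in many genes that fell. Among the 41 members RRBP1 was the only one with the word in the annotated 3′ UTR of the transcript examined (2.44%), beside 266 of 13613 genes (1.95%). The 266 genes had a median log2 fold change of -0.18, beside 0.006 for genes without the word, and 198 of them (74.4%) were below 0, beside 48.7%. Of the 24 called genes examined, 8 carried it, all among the 16 called lower. With the block it was in 48 of 217 genes called lower and 0 of 170 called higher. Because the word was taken from these same libraries, these counts are a description. DDX5 itself carries the word, starting in its annotated 5′ UTR. Whether the siRNA has any part in the fall of RRBP1 was not tested. The sites are shown for RRBP1, for SEC61A1 of the wider lists, and for CTDSP2, which encodes a phosphatase and is among the called genes, with the word in capitals.
RRBP1 (chr20:17613922-17613951, minus strand): gggccaccgccgagtGACGCCAaagccctg
SEC61A1 (chr3:128071602-128071631, plus strand): gggactgtcactgtgGACGCCAaaatggca
CTDSP2 (chr12:57820002-57820031, minus strand): aaacttgaaatgcagGACGCCAttaagtgt

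**Figure D5:**
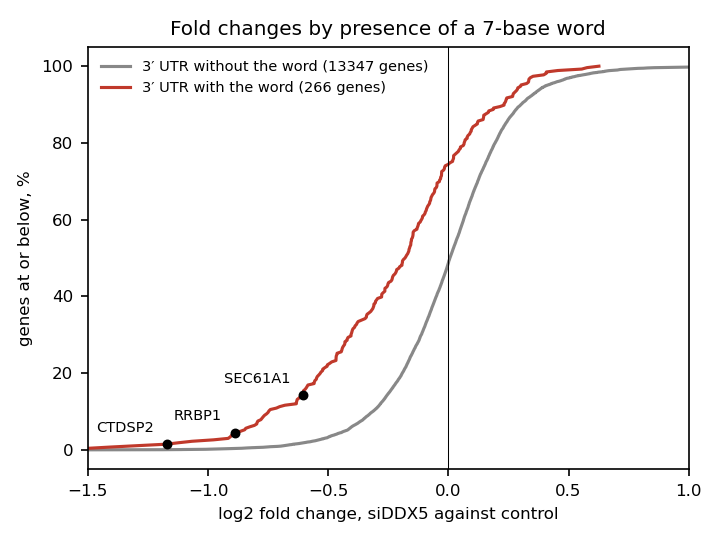
Share of genes at or below each log2 fold change, in percent, for 266 genes with the 7-base word in the annotated 3′ UTR and 13347 genes without it, with RRBP1, SEC61A1 and CTDSP2 marked. The curve of the genes with the word lies to the left, with 74.4% of them below 0 beside 48.7% of the others, and the axis ends at -1.5 and 1.

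A wider set of 113 genes of the same pathways, all of them tested, gave 0 calls without the block in edgeR's test and 2 with it, 1 lower and 1 higher (1.77% beside 2.59% of all genes). At an unadjusted p under 0.05 there were 12, 7 higher and 5 lower (10.6%, beside 11.4% of all genes), and in 19 (16.8%, beside 18.1%) the groups did not overlap. The median log2 fold change was 0.047. By list, 2 higher and 2 lower of 35 further ER folding genes, 2 and 1 of 20 further sensors and regulators, 2 and 2 of 35 further ATF4 targets, and 1 and 0 of 23 further decay genes had an unadjusted p under 0.05. These are between 4.35% and 15% of the lists, beside 11.4% of all genes.

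SEC61A1, the pore subunit of the channel through which proteins enter the ER, was the gene called lower with the block. It was at 246, 228 and 192 CPM across the controls and 151, 158 and 129 CPM with siDDX5. The groups did not overlap, with a log2 fold change of -0.60, a standard error of 0.13 and an adjusted p in edgeR's test of 0.0983 without and 0.0122 with the block, and DESeq2's Wald test gave an adjusted p of 0.00254. It was not called with limma-trend (adjusted p 0.198 and 0.212 at the pseudocounts 1 and 0.1), without any 1 library (0.0984 to 0.399) or without both replicate 3 libraries (0.325). SEC61B, a smaller subunit of the same channel, was at 55.5 to 65.7 CPM across the controls and 69.9 to 92.7 CPM with siDDX5 (log2 fold change 0.38, adjusted p 0.316). SEC61A1 was the only gene of the wider set with the 7-base word (0.885%).

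EIF2S1, which encodes eIF2 alpha itself, was the gene called higher with the block. It was at 168, 201 and 174 CPM across the controls and 222, 262 and 228 CPM with siDDX5, again without overlap. Its log2 fold change was 0.39 (standard error 0.12), and the adjusted p in edgeR's test was 0.250 without and 0.0478 with the block. The block was the only alternative that called it. With limma-trend its log2 fold change was 0.16 and 0.17 at the pseudocounts 1 and 0.1, and over all alternatives but the block the adjusted p was 0.0715 to 0.746. EIF2S1 encodes the target of EIF2AK3, and PPP1R15B brings the phosphatase to that target. In CPM, the RNA of both was higher in all 3 siDDX5 libraries than in all 3 controls. This layout held for 8.86% of all genes tested. In TPM, EIF2S1 was at 247 ± 40.7 in control and 275 ± 8.91 in siDDX5 cells (SD, n = 3 each). PPP1R15B was at 62.5 ± 6.48 and 88.6 ± 2.18 TPM. These 2 genes carry another 7-base word, ACTTGAA, in the annotated 3′ UTR, PPP1R15B at 1 site and EIF2S1 at 4 sites. This word was in 2445 of 13613 genes (18.0%), in 10 of 41 members (24.4%) and in 22 of 113 wider genes (19.5%). It was in 80 of 170 genes called higher with the block and in 42 of 217 called lower, and its carriers had a median log2 fold change of 0.04 beside -0.002 for the other genes. Like the first word it was taken from these same libraries, so the counts are a description, and any part of the word in these changes was not tested.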

How the data were processed

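Libraries were made from mRNA with a stranded kit, per the labels' protocols. The deposited tables hold kallisto 0.46.0 estimated counts and TPM per transcript, and the submitters' processing notes also name bcl2fastq 2.20, FastQC 0.11.8, cutadapt 1.11 and GRCh38. TPM values were scaled by the authors for length. Of 188753 transcripts, 169797 were joined to GENCODE 29 genes by identifier, 15291 by symbol and 890 by position. Estimated counts were summed per gene, rounded, filtered with filterByExpr, scaled by TMM and tested with edgeR 4.0.16 (R 4.3.3) over all genes, with Benjamini-Hochberg adjustment.

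Groups and replicate numbers come from the titles. Deviations of same-numbered libraries correlated at 0.23, 0.32 and 0.66 over 15223 genes. The main model had no replicate term, and the replicate block was fitted as an alternative. The level that 3 counts give covers counting error only.

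Members and lists were chosen with earlier results of these data known. Values of every library are given for HSPA5, XBP1, ATF4, DDIT3 and DDX5, for members called in either fit, at an unadjusted p under 0.05, or without overlap and a log2 fold change of at least 0.3. For wider lists, genes called with the block are named. Library values of HSP90B1, DDIT4, SYVN1, CHAC1 and SEC61B were added after they were seen. Alternatives used DESeq2 1.42.0, limma 3.58.1, other filters, other joins and fewer libraries. The steps were tested on simulated counts whose gene changes were larger than those fitted for the members, so smaller changes were not covered.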

Additional observations from a re-analysis of the deposited data

How the results depend on the processing

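Of 25 genes changed, DESeq2's Wald test gave 323, no filter 136 and the replicate block 395, and all 25 were shared in each. Limma-trend on TPM logs with a pseudocount of 1 or 0.1 gave 1 and 1, with 0 of the 25 among them (1272 and 1251 at an unadjusted p under 0.05), and leaving out both replicate 3 libraries, chosen after seeing the data, gave 4, of which 3 were among the 25. Leaving out 1 library gave 0 to 15, with 0 without control replicate 1 (1244 at an unadjusted p under 0.05) and 0 without siDDX5 replicate 1 (2042). Of the members, DESeq2 and no filter each called 2, the block 3, and limma-trend 0 and 0 (6 and 5 at an unadjusted p under 0.05). Without both replicate 3 libraries 0 members were called (4 at an unadjusted p under 0.05), and without 1 library 0 to 0 (4 to 10). RRBP1 kept its direction throughout, with adjusted p from 2.73e-08 to 0.228. DDX5 was at -1.44 with limma-trend at either pseudocount (adjusted p 0.0850 and 0.0928), and at -1.54 to -1.30 without 1 library. Its adjusted p without 1 library was 0.0195 to 0.0953 in edgeR's test. It was above 0.05 without control replicate 1, siDDX5 replicate 1 or siDDX5 replicate 2. Members called for transcript usage numbered 0 to 2 without 1 library. The XBP1 spliced share differed by -0.60 to 4.43 percentage points without 1 library, turning to -0.60 without siDDX5 replicate 2. Without 1 library DDIT3 ran from -0.10 to 0.27 and XBP1 from -0.17 to 0.07. DDIT3 turned to -0.10 without control replicate 1 and to -0.10 without siDDX5 replicate 2. XBP1 turned to 0.04, 0.07 and 0.01 without control replicate 3, siDDX5 replicate 1 and siDDX5 replicate 3, and to 0.07 without both replicate 3 libraries. The median of the members stayed between 0.006 and 0.167. Of the 31 other members, 21 changed sign in at least 1 setting and 10 did not. With 3 libraries a group, the standard error of a member's log2 fold change had a median of 0.16, which limits what could be called.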

Other observations

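Apart from the last sentence, on the member EIF2AK3, the following values belong to genes outside the comparisons of the members. The fitted log2 fold changes of the eIF2 alpha kinases other than EIF2AK3 did not share a sign, and none was called without or with the block. EIF2AK1 (HRI) had -0.14, with an adjusted p of 0.637 in edgeR's test. EIF2AK2 (PKR), the kinase that senses double-stranded RNA, was at 244 to 273 CPM in the control and 283 to 339 CPM in the siDDX5 libraries, with a log2 fold change of 0.25 and an adjusted p of 0.428 in edgeR's test. EIF2AK4 (GCN2), the kinase that senses amino acid shortage, was at 110 to 126 CPM in the control and 91.9 to 102 CPM in the siDDX5 libraries, with -0.26 and an adjusted p of 0.394 in edgeR's test. The groups of EIF2AK2 and of EIF2AK4 did not overlap, while those of EIF2AK1 did. Among the further ATF4 targets, MTHFD2, a mitochondrial enzyme of folate metabolism, had a log2 fold change of 0.23, and WARS1, the tryptophan tRNA ligase, -0.30, also without overlap, with adjusted p of 0.405 and 0.342 in edgeR's test. SPCS3, a subunit of the signal peptidase, had 0.32 and MOGS, a glucosidase that trims new glycans, -0.32, again without overlap, with adjusted p of 0.288 and 0.357 in edgeR's test. These genes were named after their values were seen. The groups did not overlap in 16.8% of the wider set, beside 18.1% of all genes tested. EIF2AK3 had its counts in siDDX5 replicate 3 on another transcript, ENST00000652736.1 (834 estimated counts), rather than on ENST00000419748.6 (5.1 estimated counts).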
